A study of Homo sapiens with 9 samples.

Results

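The mRNAs of the cytosolic ribosomal proteins were followed in ES-2 cells, an established line from an ovarian carcinoma, upon depletion of IGF2BP1 or SRF. Members were all protein-coding genes listed as RPL or RPS with a number, together with RPLP0, RPLP1, RPLP2 and RPSA, and without the S6 kinases of the RPS6K series. This took 91 of the 58174 genes in the tables, of which 19799 were protein-coding. Of the 91, 31 encode proteins of the small subunit and 46 proteins of the large subunit, and these 77 are called core members here. The others were 10 paralogues with a symbol of their own, such as RPL22L1, 3 genes joined to a neighbour (RPL17.C18orf32, RPL36A.HNRNPH2 and RPS10.NUDT3), and RPS19BP1, which is no ribosomal protein but matched by its symbol. FAU and RACK1, which encode ribosomal proteins under other symbols, are given apart.

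Cells received a control siRNA (siC), a pool of siRNAs to IGF2BP1 (siIGF2BP1) or a pool to SRF (siSRF), and total RNA was sequenced at 72 h after depletion of ribosomal RNA. There were 3 libraries per condition, and both knockdowns share the same siC libraries. All cells were of the same line without an engineered genetic change. According to the paper, the line was reported to be p53-mutated, and p53 activity was not tested here. The sources do not say whether libraries came from separate cultures, so p-values measure the spread between these libraries. The libraries held 6421764 to 9416175 reads on genes. VIM, KRT8 and KRT18 were present in all libraries, while the epithelial markers EPCAM and CDH1 reached at most 0.259 FPKM and MUC16, a marker of ovarian carcinomas, was listed at 0. Of 8 markers of blood, vessel and liver cells the highest was CD14 with 0.945 FPKM in a siIGF2BP1 library. IGF2BP1 mRNA was at 12.8, 13.5 and 12.1 FPKM in siC and at 4.18, 4.14 and 4.02 FPKM in siIGF2BP1, a log2 fold change (± standard error, as throughout) of -1.61 ± 0.067 (adjusted p = 0.000141 by limma). SRF mRNA was at 13.6, 14.1 and 16 FPKM in siC and 1.63, 1.36 and 1.42 FPKM in siSRF, a log2 fold change of -3.22 ± 0.107 (adjusted p = 6.07e-05 by limma). In siIGF2BP1 the SRF mRNA was also low, at 5.8, 5.42 and 6.8 FPKM (-1.26 ± 0.107, adjusted p = 0.00111 by limma), so that siIGF2BP1 cells held less of both mRNAs.

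A ribosome holds a single copy of nearly every ribosomal protein, and cells make these proteins in matched amounts together with ribosomal RNA. The small subunit reads the mRNA, and the large subunit joins amino acids and guides the new chain through its exit tunnel. Ribosomal protein mRNAs begin with a C followed by a run of pyrimidines, the 5′ terminal oligopyrimidine (TOP) tract, through which mTOR and LARP1 set their translation. IGF2BP1 binds and stabilises selected mRNAs, and SRF is a transcription factor that binds CArG boxes and drives genes of the cytoskeleton.

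The starts of some members named in the results are shown first, because the TOP tract is the feature that most of these mRNAs share. Each line gives 30 bases of GRCh38.p14 from RefSeq, 10 before and 20 from the annotated start, read in the direction of the gene. Capitals mark a C at most 5 bases from the start with the 4 or more pyrimidines that follow it. The first pair are RPLP0, the reference gene of the RT-qPCR in the study, and RPS12, the highest member.
RPLP0, chr12:120201092-120201121, minus strand: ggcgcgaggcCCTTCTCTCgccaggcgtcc
RPS12, chr6:132814559-132814588, plus strand: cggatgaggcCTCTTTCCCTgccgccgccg
Next come the 4 core members that fell in siSRF.
RPL10A, chr6:35468391-35468420, plus strand: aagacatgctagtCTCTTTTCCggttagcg
RPL3, chr22:39319604-39319633, minus strand: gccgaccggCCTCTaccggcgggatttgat
RPL13A, chr19:49487598-49487627, plus strand: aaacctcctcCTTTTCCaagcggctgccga
RPL12, chr9:127451387-127451416, minus strand: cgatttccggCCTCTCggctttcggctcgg
These 3 rose in siSRF and have a tract, while RPL6, RPL9 and RPL17, which also rose, have none and are not printed.
RPL35, chr9:124861938-124861967, minus strand: cgcctacttcCTCTTTCCCTCggagcgggc
RPL24, chr3:101686699-101686728, minus strand: atgattctctCTTTCTTTTCgccatctttt
RPS10, chr6:34426050-34426079, minus strand: catgctccttCCTTTCCagccccggtaccg
The last are core members with the paralogue of each, RPL26L1 having 2 annotated starts.
RPL22, chr1:6199576-6199605, minus strand: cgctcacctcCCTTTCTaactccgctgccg
RPL22L1, chr3:170870176-170870205, minus strand: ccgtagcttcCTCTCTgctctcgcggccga
RPS27, chr1:153990752-153990781, plus strand: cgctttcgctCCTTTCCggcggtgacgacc
RPS27L, chr15:63157458-63157487, minus strand: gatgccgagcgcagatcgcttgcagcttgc
RPL26, chr17:8383174-8383203, minus strand: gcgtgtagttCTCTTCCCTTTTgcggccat
RPL26L1, chr5:172958719-172958748, plus strand: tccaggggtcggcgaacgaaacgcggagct
RPL26L1, chr5:172958870-172958899, plus strand: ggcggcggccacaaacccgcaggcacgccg

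Such a tract was present at the start of 53 of the 62 core members with a promoter in the RefSeq table, or 85.5%, against 25.2% of the 27305 genes of the table. It began at the annotated start itself in 46 of the 62 core members, against 5.14% of all genes. RPL6, RPL9 and RPL17, which rose in siSRF, were among the 9 core members with no tract at the annotated start. The tract was found in 3 of the 8 paralogues listed there, and RPS27L and RPL26L1 did not. The members that fell and those that rose in siSRF both include genes with a tract, RPL13A and RPL35 among them. A CArG box on either strand within 300 bases (250 before the start and 50 from it) was found in RPL24, RPS27A and RPS28, 4.84% of core members, against 1.6% of all genes, and in none of the 4 core members that fell in siSRF. Such matches describe the letters of these windows and show no binding.

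The core members were among the most abundant mRNAs of the cells, but their FPKM spanned a wide range. In siC, 31 of them lay among the 100 protein-coding genes of highest FPKM, 61 were at 100 FPKM or more and 8 were under 50 FPKM. RPS12 was highest with 1597 FPKM ± 113 (SD, n = 3), followed in the small subunit by RPS2 with 756, RPS27 with 611 and RPS21 with 546 FPKM. In the large subunit RPL13A came first with 936 FPKM ± 37.9 (SD, n = 3), followed by RPLP0, which carries the stalk of the large subunit, with 737, RPL8 with 623, RPL4 with 539 and RPL7 with 528 FPKM. Lowest were RPL36A with 3.1 FPKM ± 0.445, RPS9 with 11.5 FPKM ± 1.36 and RPL17 with 19 FPKM ± 0.917 (SD, n = 3 each). The SD was under 5% of the mean for a typical core member (median 4.83%) and 29.6% at most, for RPL28. The plot of levels by library sets the knockdown libraries beside those of siC for each gene shown.

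**Figure D1:**
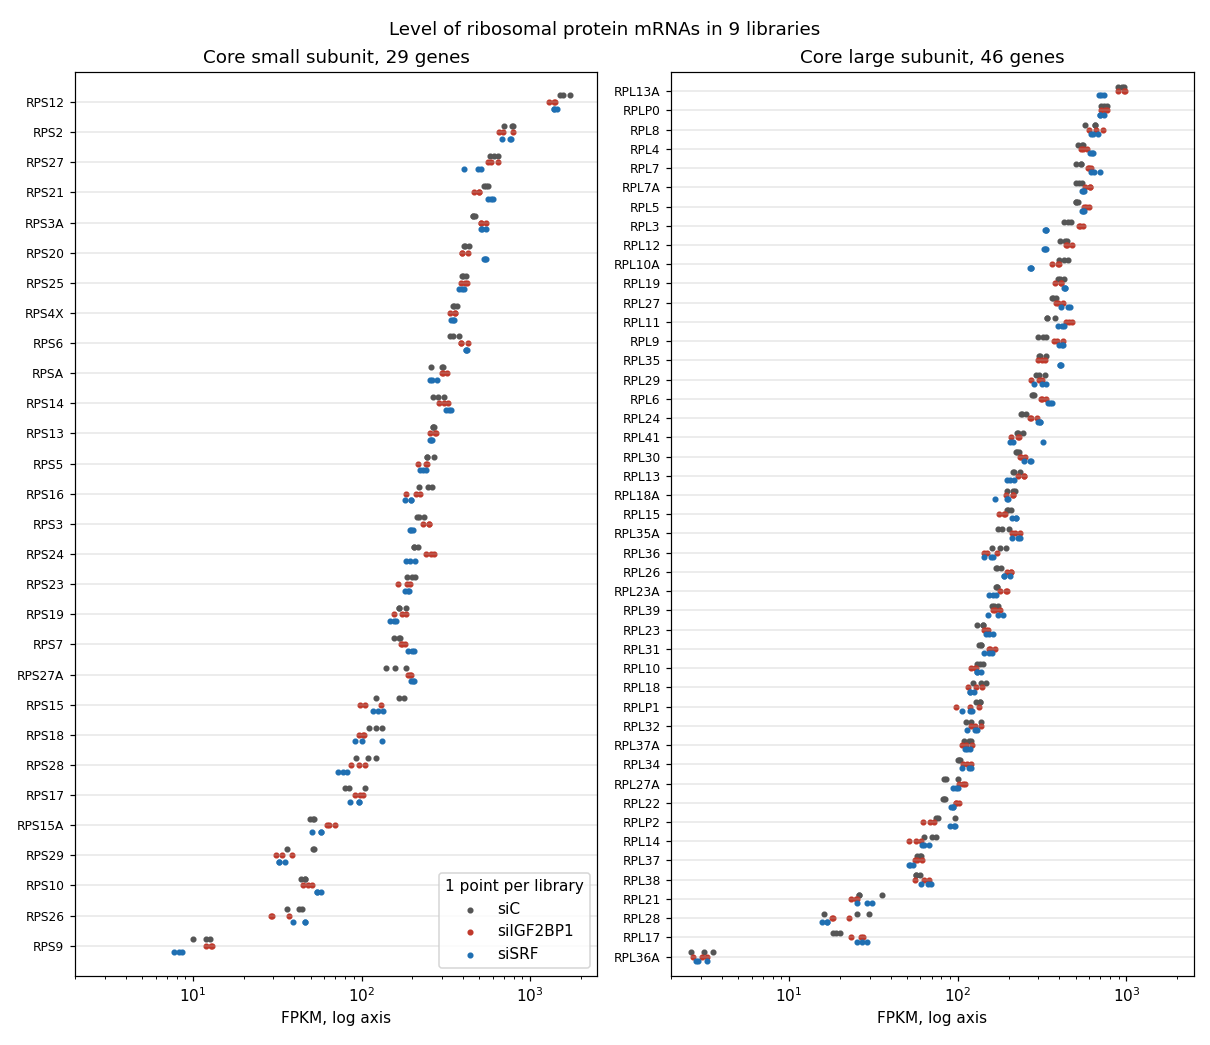
FPKM on a log axis of 29 of the 31 core small subunit and the 46 core large subunit mRNAs, ordered by their mean in siC, with 1 point for each of the 9 libraries. Levels run from RPL36A near 3 FPKM to RPS12 above 1000 FPKM, and the siSRF points lie left of siC in RPL10A and RPL3 and right of siC in RPS20 and RPL35.

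Ribosomal proteins are small and their mRNAs short, but the gene lengths behind the deposited FPKM were not. The deposited length had a median of 2982 bases over the core members, against 785 bases for the canonical transcript in GENCODE, and exceeded it more than 2 times in 64 of 77. The ratio ran from 1.08 in RPL37 to 33 in RPS29, as the plot of both lengths shows. Protein-coding genes of at least 1 FPKM had medians of 5138 and 3387.5 bases. On canonical length RPLP0 became the highest member with 2669 FPKM and RPS12 the second with 2434 FPKM, RPS29 moved from rank 73 to rank 12 of all members, and RPL36A stayed the lowest core member. The order of levels between genes thus depended on the length used (Spearman's rho 0.826 across the 77 core genes, which share libraries and depth), while comparisons of 1 gene between libraries did not.

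**Figure D2:**
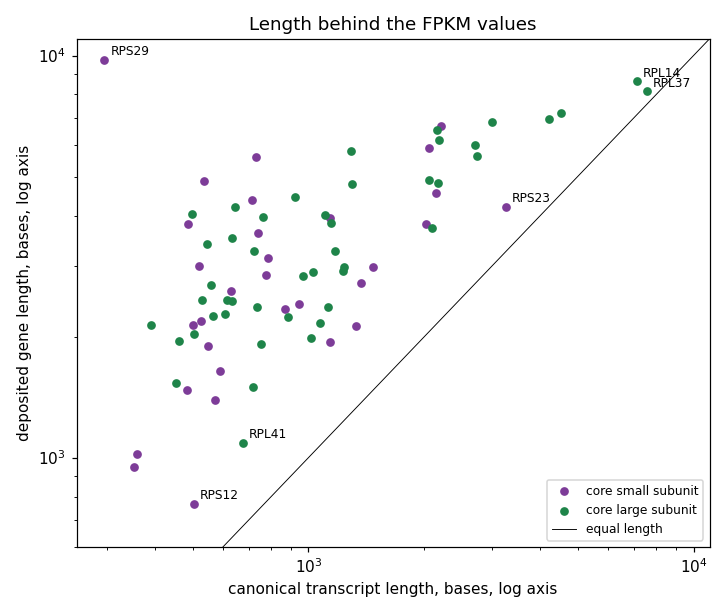
Deposited gene length against canonical transcript length of the 77 core members, both in bases on log axes, with the line of equal length. Every gene lies above the line, RPS29 the farthest with 9743 against 295 bases.

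Reads of ribosomal protein mRNAs can also fall on processed pseudogenes. The tables list 1129 pseudogenes named after core members or paralogues, for 76 of the 77 core members, and these held 8.69% of the reads on members and pseudogenes together. How reads with several matches were treated is not given in the sources used here. The pseudogene share was highest for RPL21 (87%) and RPS18 (61.1%). Of the core members called in siSRF it was 27.2% for RPL9, 11.4% for RPL6, 10.6% for RPL13A, 8.82% for RPL17, 6.76% for RPL3 and 6.26% for RPL24 but 2.8% for RPS10, 2.42% for RPL12, 1.98% for RPS20, 1.14% for RPL10A and 0.307% for RPL35. Values of genes with a high share are the less certain. Exon bases were shared with a gene on the other strand by 26 core members, and whether strand was used in counting is not given in the sources used here. On the same strand 34 core members shared exon bases with another gene, none of them over 50%. RPL17, a low member called higher in siSRF, shared 32.9%, so its level is the less certain.

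As a group, the core members were at nearly the same level in all 3 conditions. Their summed FPKM had a mean of 21322 ± 597 in siC, 21767 ± 847 in siIGF2BP1 and 21376 ± 373 in siSRF (SD, n = 3 each), and all 3 ranges overlapped. They took between 6.74% and 7.05% of the reads of protein-coding genes in siC, between 7.02% and 7.34% in siIGF2BP1 and between 6.64% and 6.74% in siSRF, where the highest siSRF library lay just under the lowest siC library. In reads, the large subunit alone took 4.22% to 4.41% in siC and 4.5% to 4.69% in siIGF2BP1, which did not overlap, whereas the small subunit took 2.51% to 2.63% in siC, 2.52% to 2.65% in siIGF2BP1 and 2.43% to 2.48% in siSRF, the last below siC. FPKM and read shares are relative measures, so a change in the total amount of mRNA per cell is not seen, and fewer cells with an mRNA and less of it per cell cannot be told apart in bulk RNA.

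The first comparison asks which members depend on IGF2BP1. Upon IGF2BP1 depletion 2 of 77 core members rose, RPL22 and RPS15A, and none fell at a limma adjusted p of at most 0.01. Among the paralogues RPL22L1 fell and RPS27L rose. Of all 12512 protein-coding genes tested by limma-trend, 5.91% were lower and 5.52% higher. All core members were tested, since all passed the filter of a mean of 0.1 FPKM, and 84 of the 91 members did so in this comparison, without the 3 joined genes and 4 of the paralogues. Among the 77 core members, 11 were lower and 21 higher at an unadjusted p under 0.05 by limma-trend. Of the 12512 protein-coding genes, 2740 were lower and 2473 higher at this limit. The median log2 fold change was -0.01 for the small and 0.07 for the large subunit, beside -0.01 for all protein-coding genes. The fold changes of the core members lay between -0.47 and 0.45, so none reached 1.5-fold, and 65 of the 77 (24 small, 41 large) were within 1.2-fold. Of the 700 protein-coding genes of at least 50 FPKM in siC, 183 were lower and 54 higher, with a median of -0.15.

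RPL22, a large subunit protein that binds RNA outside the ribosome as well, was at 83.5, 81.2 and 83.4 FPKM in the siC libraries and at 97.4, 98.1 and 101 FPKM in siIGF2BP1, a log2 fold change of 0.26 ± 0.0377 (adjusted p = 0.00684 by limma). RPS15A, a protein of the small subunit, was at 49.7, 52.5 and 51.3 FPKM in siC and 62.7, 63.8 and 70 FPKM in siIGF2BP1, a log2 fold change of 0.35 ± 0.0549 (adjusted p = 0.00841 by limma). In both genes the siIGF2BP1 libraries lay above those of siC without overlap, for which the exact permutation test (two-sided) gives p = 0.1, the smallest that 3 libraries against 3 allow. Both calls were lost whenever 1 library was left out, with adjusted p-values of 0.0217 to 0.0279 for RPL22 and 0.0231 to 0.0388 for RPS15A. Next in p were RPL17, RPL11 and RPS24, which missed the threshold in limma-trend. RPL11, which with RPL5 and 5S ribosomal RNA can bind MDM2, had 339, 336 and 379 FPKM in siC and 455, 440.1 and 477 FPKM in siIGF2BP1, a log2 fold change of 0.38 ± 0.0666 (adjusted p = 0.0125 by limma). RPS24, a small subunit protein mutated in Diamond-Blackfan anaemia, had 203, 204 and 215 FPKM in siC and 242, 258 and 268 FPKM in siIGF2BP1, a log2 fold change of 0.30 ± 0.0544 (adjusted p = 0.014 by limma). RPL17, which lines the exit tunnel, had 18.9, 18.1 and 20 FPKM in siC and 23.4, 27.6 and 26.9 FPKM in siIGF2BP1, a log2 fold change of 0.45 ± 0.076 (adjusted p = 0.0116 by limma). In each of the 3 genes all siIGF2BP1 libraries lay above all siC libraries.

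Limma-voom, which weights the reads recovered from the FPKM by their precision, made more calls among all genes. It called 8 core members lower (6 small, 2 large) and 19 higher (5 small, 14 large) upon IGF2BP1 depletion, beside 14.3% lower and 13.7% higher of all protein-coding genes. RPL11 (adjusted p = 1.46e-07), RPL3 (8.47e-07) and RPS24 (1.58e-06) were among the higher, and RPS12 (0.000289) among the lower. RPS12 had 1562, 1723 and 1505 FPKM in siC and 1395, 1297 and 1393 FPKM in siIGF2BP1, with a log2 fold change of -0.23 ± 0.0845 (adjusted p = 0.132 by limma) in limma-trend. The 3 libraries of both groups did not overlap in 10 core members that were lower and 26 that were higher, of which 19 were of the large subunit. For all protein-coding genes this was the case for 25.7% lower and 24.8% higher. A normalization that follows the abundance of genes, cyclic loess, moved the medians to 0.13 for the small and 0.20 for the large subunit. The median of all protein-coding genes was then -0.01. It called 19 members higher, and the share of all genes that it called was not determined. The place of the group relative to other genes thus depended on the scaling in this comparison.

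**Figure D3:**
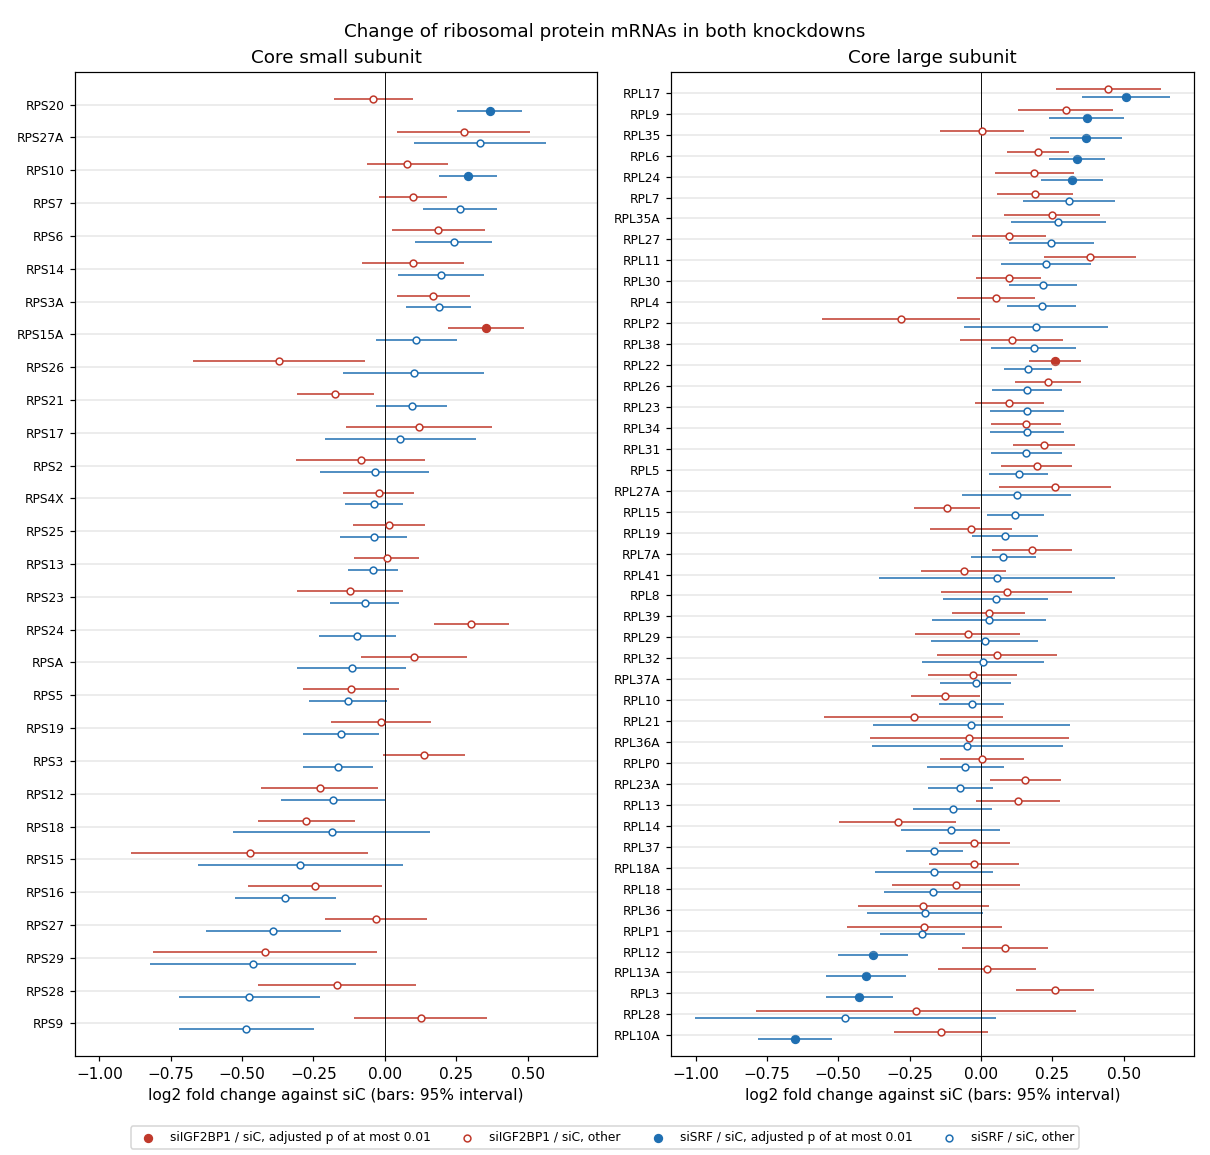
Log2 fold change against siC of 29 small and 46 large subunit members upon IGF2BP1 depletion (red) and SRF depletion (blue), with 95% intervals of limma, ordered by the value in siSRF. Filled points have an adjusted p of at most 0.01: 2 for siIGF2BP1 and 11 for siSRF.

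The second comparison asks the same of SRF. Upon SRF depletion 11 core members changed: RPL10A, RPL3, RPL13A and RPL12 fell, and RPL17, RPL9, RPL35, RPL6, RPL24, RPS20 and RPS10 rose. Of the paralogues RPL26L1 and RPS27L rose. Of the 12381 protein-coding genes tested, 8.67% were lower and 11.1% higher by limma-trend, and 85 of the 91 members were tested. The 4 that fell were all of the large subunit (4 of 46, against 0 of 31 in the small subunit), and 2 small and 5 large subunit members rose. The 4 that fell make 8.7% of the 46 and 5.19% of all 77 core members, beside the 8.67% of protein-coding genes. The 7 that rose make 9.09% of the 77, beside 11.1%. Other measures did not show the split between the subunits. Limma-voom called 8 small and 7 large subunit members lower (17.5% of protein-coding genes). Libraries lay below siC without overlap in 10 small and 6 large subunit members (26.5% of protein-coding genes). Medians were -0.04 for the small and 0.07 for the large subunit, beside 0.02 for all protein-coding genes, and 55 of the 77 (21 small, 34 large) were within 1.2-fold. Of the 700 protein-coding genes of at least 50 FPKM in siC, limma-trend called 139 lower and 106 higher in siSRF, with a median of -0.02.

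RPL10A, a protein of the mobile L1 stalk, showed the largest change of a core member. It was at 425, 449.9 and 401 FPKM in siC and at 267, 271 and 272 FPKM in siSRF, which is 63.6% of siC, a log2 fold change of -0.65 ± 0.0534 (adjusted p = 0.000742 by limma). It was called in 5 of the 6 fits that leave out 1 library, and without siSRF library 2 its adjusted p was 0.0104. RPL3, which lies near the site where peptide bonds form, was at 426, 468 and 451 FPKM in siC and 334, 336 and 331 FPKM in siSRF, a log2 fold change of -0.43 ± 0.0488 (adjusted p = 0.00212 by limma). The siSRF values of both genes lay closely together and below the lowest siC library.

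RPL13A, a large subunit protein also known from a complex that silences mRNAs, went from 895, 971 and 941 to 687, 702 and 733 FPKM, a log2 fold change of -0.40 ± 0.058 (adjusted p = 0.00454 by limma). RPL12, at the base of the stalk, went from 404, 433 and 446 to 324, 330.2 and 332 FPKM, a log2 fold change of -0.38 ± 0.0505 (adjusted p = 0.00356 by limma). For RPL13A no fit that left out 1 library kept the call (0.0166 to 0.0404), for RPL12 1 of 6 did (0.00815 to 0.0272) and for RPL3 2 of 6. All of these fits kept a negative value. With trends along GC content and length removed, an alternative chosen after seeing the data, the log2 fold changes were -0.60 for RPL10A, -0.28 for RPL3, -0.29 for RPL13A and -0.29 for RPL12.

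Among the members that rose, RPS20, a protein in the head of the small subunit, was at 406, 411 and 435 FPKM in siC and 537, 531 and 547 FPKM in siSRF, with 0.37 ± 0.0473 (adjusted p = 0.00312 by limma). RPL35, at the mouth of the exit tunnel, was at 307, 335 and 303 FPKM in siC and 406, 408 and 405 FPKM in siSRF, with 0.37 ± 0.0521 (adjusted p = 0.00428 by limma). In both of them the siSRF libraries were nearly equal to each other and above all siC libraries. RPL6 (0.34), RPL24 (0.32), RPL9 (0.37) and RPL17 (0.51) of the large subunit and RPS10 (0.29), near the mRNA entry, rose on the log2 scale with limma adjusted p-values between 0.0024 for RPL6 and 0.00479 for RPL9. Calls were lost in at least 5 of the 6 fits without 1 library for each of these 7 genes, while the direction was kept.

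Limma-voom on the reads called 15 core members lower (8 small, 7 large) and 24 higher (8 small, 16 large) in siSRF, beside 17.5% lower and 20.9% higher of all protein-coding genes. The lower ones in the small subunit included RPS9, with 10, 12.7 and 11.9 FPKM in siC and 8.24, 8.56 and 7.76 in siSRF (limma-voom adjusted p = 0.00013, 0.0154 by limma-trend), and RPS28, with a log2 fold change of -0.47 (limma-voom adjusted p = 3.76e-06). Among the higher ones were RPS6, the substrate of the S6 kinases, at 351, 334 and 378 FPKM in siC and 419, 415 and 419 FPKM in siSRF (limma-voom adjusted p = 1.9e-05), and RPL11 (0.000241). Libraries did not overlap in 16 core members that were lower and 29 that were higher, against 26.5% and 30.8% of protein-coding genes. The knockdowns share the siC libraries, which by itself makes genes lie apart from siC in both more often. Such genes are named here without a count, and the share of all genes that did so was not determined. No joint effect of the knockdowns is read from this list. Above siC in all libraries of both were, among others, RPL5, RPL6, RPL7, RPL7A, RPL9, RPL11, RPL17, RPL22, RPL23, RPL24, RPL26, RPL27, RPL30, RPL31, RPL34, RPL35A, RPS3A, RPS6, RPS7 and RPS27A, and below it RPS12 and RPL10A. RPL3 was above siC in siIGF2BP1 and below it in siSRF, with log2 fold changes of 0.26 and -0.43, and RPL15 had -0.12 and 0.12. Of these genes RPL35A had 0.25 and 0.27, and RPS27A, which is made as a fusion with ubiquitin, had 0.28 and 0.33 as log2 fold change in siIGF2BP1 and siSRF.

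The third comparison sets the knockdowns against each other and needs no siC library. At a limma adjusted p of at most 0.01, 5 core members were lower in siIGF2BP1 than in siSRF (RPLP2, RPS20, RPL35, RPS21 and RPL15) and 7 were higher (RPL3, RPS9, RPL10A, RPL12, RPL13A, RPS24 and RPS3). Of the 12507 protein-coding genes tested, 18.3% were lower and 13.7% higher by limma-trend. Limma-voom called 15 lower and 19 higher core members, against 26.6% and 22.6% of protein-coding genes. Libraries did not overlap in 16 lower and 19 higher core members, against 34.8% and 30.8% of protein-coding genes.

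Among core members RPL3 differed most, with 532, 526 and 553 FPKM in siIGF2BP1 and 334, 336 and 331 FPKM in siSRF, a log2 fold change of 0.69 ± 0.0384 (adjusted p = 7.76e-05 by limma). RPS9 (0.61 ± 0.0618, adjusted p = 0.000666 by limma), RPL10A (0.51 ± 0.0489, adjusted p = 0.000531 by limma) and RPL12 (0.46 ± 0.0463, adjusted p = 0.000647 by limma) followed, and these 4 were called in all 6 fits that leave out 1 library. The calls of RPL13A (0.42), RPS24 and RPS3 held in 1 of the 6, and those of RPLP2, RPS20 and RPL35 in 2. RPS24 had 242, 258 and 268 FPKM in siIGF2BP1 and 206, 194 and 183 FPKM in siSRF, with 0.40 ± 0.061 (adjusted p = 0.00363 by limma). RPS3, at the mRNA entry, had 249.6, 231 and 251 FPKM in siIGF2BP1 and 198, 202 and 193 FPKM in siSRF, with 0.30 ± 0.0452 (adjusted p = 0.00327 by limma). In the other direction RPLP2, a stalk protein, had 72.6, 61.9 and 68 FPKM in siIGF2BP1 and 89.6, 94.7 and 96.1 FPKM in siSRF, with -0.47 ± 0.0649 (adjusted p = 0.00231 by limma). RPS20 (-0.41) and RPL35 (-0.37) were lower in siIGF2BP1 than in siSRF, while against siC they had -0.04 and 0.00 in siIGF2BP1. RPS21 (-0.27) and RPL15 (-0.24) kept the call in no fit without 1 library. RPS19BP1, which binds RPS19 and is no ribosomal protein, had 12.5, 9.44 and 12.6 FPKM in siIGF2BP1 and 17.1, 17.2 and 18.6 FPKM in siSRF, with -0.63 ± 0.119 (adjusted p = 0.00866 by limma).

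RPLP0 and GAPDH, the reference and the negative control of the RT-qPCR, did not pass limma-trend in any comparison. RPLP0 had 708, 765 and 738 FPKM in siC, 743, 711 and 764 in siIGF2BP1 and 694, 697 and 737 in siSRF. Its log2 fold change was 0.00 in siIGF2BP1 (95% interval -0.14 to 0.15) and -0.06 in siSRF (95% interval -0.19 to 0.08). GAPDH stood at 189.8% of RPLP0 in siC, 181% in siIGF2BP1 and 204% in siSRF by FPKM. This ratio did not overlap between the knockdowns (185, 177 and 182% against 211, 213 and 187%), and limma-voom called GAPDH lower in siIGF2BP1 than in siSRF (-0.11, adjusted p = 0.000976 by limma-voom). Set against RPLP0 in this way, SRF mRNA was 1.91, 1.84 and 2.17% in the siC libraries, 0.781, 0.762 and 0.89% in siIGF2BP1 and 0.235, 0.195 and 0.193% in siSRF.

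Of the 6 paralogues tested, 1 fell and 1 rose in siIGF2BP1, beside 5.91% and 5.52% of protein-coding genes. In siSRF 0 fell and 2 rose, beside 8.67% and 11.1%. Between the knockdowns 2 were lower and 0 higher in siIGF2BP1, beside 18.3% and 13.7%. RPL22L1, which can take the place of RPL22 and is itself regulated by it, was at 52.4, 45.2 and 54 FPKM in siC, 34.7, 33.4 and 36.2 FPKM in siIGF2BP1 and 40.9, 34.9 and 33.5 FPKM in siSRF. Its log2 fold change was -0.53 ± 0.0764 (adjusted p = 0.00642 by limma) in siIGF2BP1 and -0.47 ± 0.0994 (adjusted p = 0.0182 by limma) in siSRF, where it missed the threshold. The siIGF2BP1 call held in 1 of the 6 fits without 1 library. On deposited lengths, RPL22L1 made up 62.7, 55.6 and 64.7% of RPL22 in siC, 35.6, 34.1 and 35.7% in siIGF2BP1 and 43.8, 37.2 and 36.8% in siSRF. The size of such shares depends on the length used. On canonical length the siC means were 61.8 FPKM for RPL22L1 and 197 FPKM for RPL22. Neither knockdown overlapped with siC in the ratio of RPL22L1 to RPL22. RPL22 itself was higher in every library of both (log2 fold change 0.26 and 0.17).

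RPS27L, a close relative of RPS27 known as a target of p53, was at 14.6, 12.6 and 14.3 FPKM in siC, 20, 20.5 and 21.5 FPKM in siIGF2BP1 and 25.8, 25 and 21.4 FPKM in siSRF. It rose in both, by 0.58 ± 0.0713 (adjusted p = 0.00385 by limma) and 0.79 ± 0.0933 (adjusted p = 0.0023 by limma) on the log2 scale, each called in 1 of 6 fits without 1 library. On deposited lengths its level was 2.27% of that of RPS27 in siC, 3.45% in siIGF2BP1 and 5.15% in siSRF. RPS27 itself had -0.39 in siSRF (limma adjusted p = 0.032). RPL26L1, nearly identical in protein to RPL26, was at 49.1, 45.3 and 54.2 FPKM in siC and 42.7, 43 and 48.6 FPKM in siIGF2BP1, and these overlapped. In siSRF it was at 84.6, 82.7 and 72.9 FPKM, a log2 fold change of 0.69 ± 0.0858 (adjusted p = 0.00269 by limma) against siC. The difference between both knockdowns, -0.84 ± 0.0771 (adjusted p = 0.000465 by limma), was called in all 6 fits without 1 library.

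RPL7L1, a factor of large subunit assembly named after RPL7, did not pass the test against siC (-0.15 in siIGF2BP1 and 0.26 in siSRF) but differed between the knockdowns, with 38.1, 37.8 and 40.7 FPKM in siIGF2BP1 and 54.8, 50.3 and 50.5 FPKM in siSRF (-0.41 ± 0.0505, adjusted p = 0.00141 by limma). RPL36AL had 84.5, 86.4 and 87.3 FPKM in siC and RPL36A, its partner, 3.13, 2.64 and 3.52 FPKM. It had -0.25 and -0.20 on the log2 scale (limma adjusted p = 0.0455 and 0.0184). RPL39L was at 15.3%, 13.8% and 14.6% of RPL39 on deposited lengths, with overlapping libraries. RPL10L was listed at 0 throughout, RPL3L was above 0 in 1 siC library alone, with 0.1 FPKM, and the joined genes reached at most 0.359 FPKM. How reads common to a paralogue and its partner were treated was not tested. The plot of paralogue ratios shows these shares by library.

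**Figure D4:**
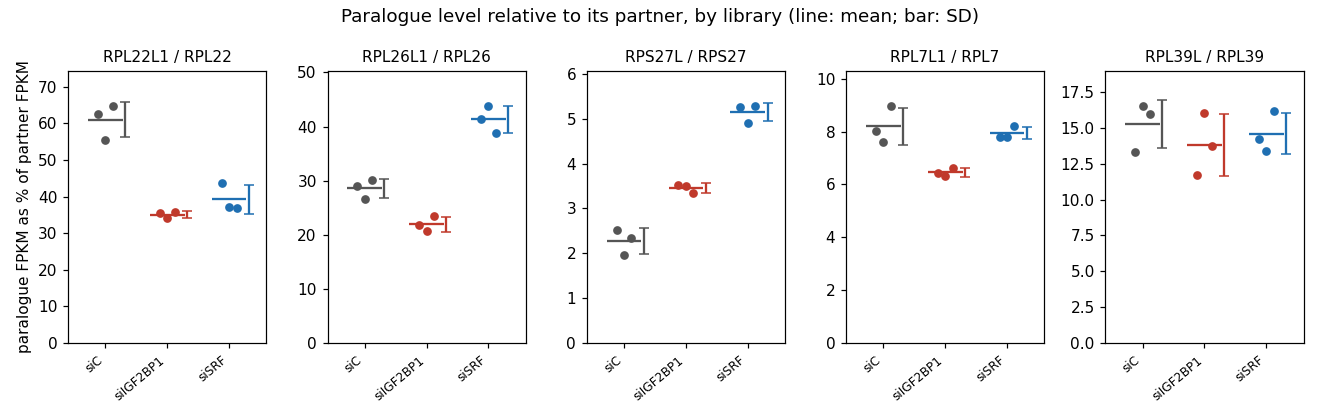
FPKM, on deposited lengths, of 5 paralogues as percent of the FPKM of the core partner in each library (points). Shown too are mean (line) and SD (bar) of the 3 libraries of siC, siIGF2BP1 and siSRF. The RPL22L1 share is lower in both knockdowns, the RPS27L share higher in both, and the RPL26L1 share lower in siIGF2BP1 and higher in siSRF than in siC.

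Genes that serve the ribosome without being part of it were read from further lists. Among 40 factors of ribosome assembly, 10 fell and none rose in siIGF2BP1, with a median log2 fold change of -0.32, and 26 rose and none fell in siSRF, with a median of 0.49, against the 5.91% and 11.1% of protein-coding genes given above. Between the knockdowns 34 of the 40 were lower in siIGF2BP1 and none higher. NIP7, a factor of pre-ribosomal RNA processing, had 25.2, 24.4 and 23.2 FPKM in siC, 18.6, 18.7 and 19.2 in siIGF2BP1 and 52.6, 51.3 and 52.9 in siSRF. Its log2 fold change was -0.36 ± 0.0487 (adjusted p = 0.0051 by limma) in siIGF2BP1 and 1.10 ± 0.0444 (adjusted p = 0.000104 by limma) in siSRF. The siSRF call held in all 6 fits without 1 library and the siIGF2BP1 call in none of them. Over the list, these fits left between 0 and 1 of the 10 lower calls in siIGF2BP1 and between 7 and 22 of the higher calls in siSRF. RPF1, of large subunit assembly, had -0.59 ± 0.0573 (adjusted p = 0.00169 by limma) in siIGF2BP1 and 0.62 ± 0.0357 (adjusted p = 0.000329 by limma) in siSRF. The core members, whose products these factors assemble, had medians between -0.04 and 0.07 in the same libraries.

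The 78 proteins of the mitochondrial ribosome went the same way, 15 falling and none rising in siIGF2BP1 (median -0.21), and 27 rising and none falling in siSRF (median 0.30), beside the same 5.91% and 11.1% of protein-coding genes. Without 1 library 0 to 3 and 6 to 17 of them were called. MRPS12 had 28.4, 29.4 and 26.3 FPKM in siC and 18.7, 18.9 and 17.6 in siIGF2BP1 (-0.61 ± 0.0587, adjusted p = 0.00169 by limma), and MRPL1 had 12.7, 12.3 and 13.4 FPKM in siC and 24, 22.6 and 23.1 in siSRF (0.86 ± 0.0509, adjusted p = 0.000349 by limma). MRPS23, with 8.46, 7.95 and 8 FPKM in siIGF2BP1 and 17.4, 18 and 18.7 in siSRF, had the smallest p of the list between the knockdowns (-1.14 ± 0.0515, adjusted p = 3.84e-05 by limma). Of 15 genes of RNA polymerase I, which makes ribosomal RNA, none passed in siIGF2BP1 and 5 rose in siSRF (11.1% of protein-coding genes did), POLR1E with 0.98 ± 0.0628 (adjusted p = 0.000424 by limma) at the smallest p. Against siSRF, where 18.3% of protein-coding genes were lower and 13.7% higher, 8 of them were lower in siIGF2BP1, TWISTNB with -1.21 (limma adjusted p = 9.46e-05), and 1 was higher, the transcription factor UBTF with 0.26 (0.00631). The medians of the assembly, mitochondrial ribosome and polymerase lists kept their sign under every alternative fitted, cyclic loess included. The plot of the lists sets them beside both subunits.

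**Figure D5:**
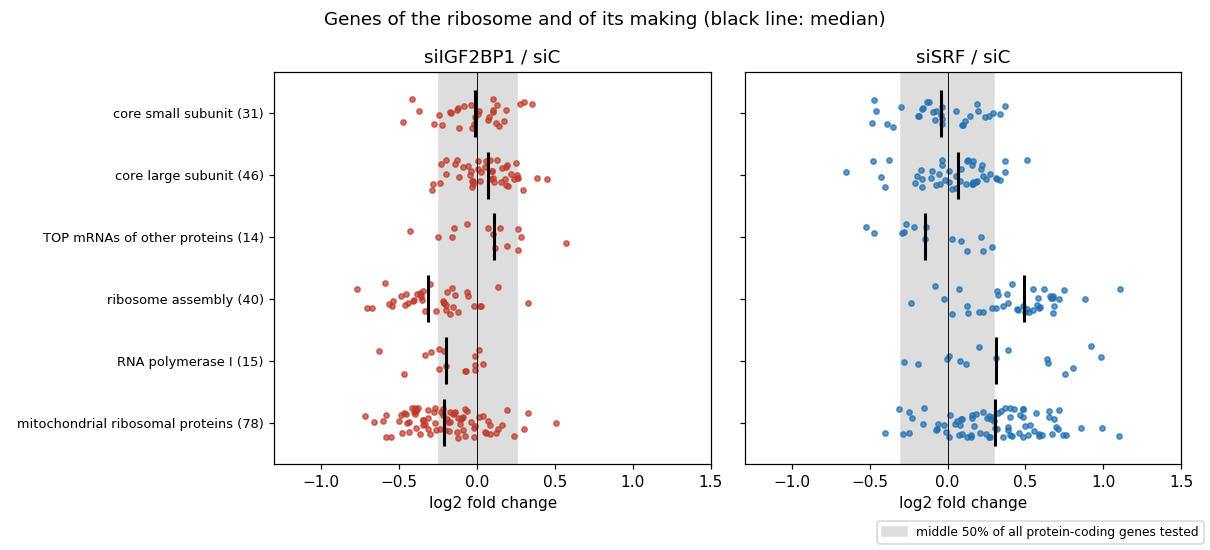
Log2 fold change against siC of each gene of 6 lists (points) with the median (black line), for siIGF2BP1 (left) and siSRF (right), over the middle 50% of all protein-coding genes tested (grey). Numbers of genes tested are in parentheses. The medians of both subunits stay near 0, while assembly factors and mitochondrial ribosomal proteins lie below 0 in siIGF2BP1 and above 0 in siSRF.

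Of 14 tested genes with TOP mRNAs that encode other proteins, such as elongation factors, EEF1B2 fell in siIGF2BP1 (-0.43 ± 0.0524, adjusted p = 0.00374 by limma) and in siSRF (-0.52 ± 0.0459, adjusted p = 0.000919 by limma), and NAP1L1, a histone chaperone, rose in siIGF2BP1 (0.57 ± 0.0576, adjusted p = 0.00188 by limma). The medians of these 14 genes were 0.11 in siIGF2BP1 and -0.14 in siSRF. Of all protein-coding genes tested, 5.91% fell and 5.52% rose in siIGF2BP1, and 8.67% fell and 11.1% rose in siSRF. Between the knockdowns 4 of the 14 were higher and 1 lower in siIGF2BP1, beside 13.7% and 18.3% of protein-coding genes. Those of smallest p were NAP1L1 (0.48, limma adjusted p = 0.000463) and EIF3A (-0.19, 0.00407). Limma-voom called 2 of the 14 lower and 5 higher in siIGF2BP1, beside 14.3% and 13.7% of protein-coding genes. In siSRF it called 7 lower and 2 higher, beside 17.5% and 20.9%. Between the knockdowns it called 2 lower and 6 higher in siIGF2BP1, beside 26.6% and 22.6%. Of 13 regulators of the mTOR pathway and of TOP mRNAs, 1 passed limma-trend in siIGF2BP1, and 1 fell and 1 rose in siSRF. These counts are too small to tell from the shares of all genes. EIF4EBP1, a repressor of translation under mTOR, fell in siIGF2BP1 (-0.65 ± 0.0633, adjusted p = 0.00172 by limma). In siSRF MLST8, a subunit of the mTOR complexes, fell (-0.56 ± 0.0612, adjusted p = 0.00181 by limma) and the S6 kinase gene RPS6KB1 rose (0.77 ± 0.107, adjusted p = 0.00409 by limma). Against siSRF, 2 of the 13 were lower and 1 higher in siIGF2BP1, beside the same 18.3% and 13.7% of protein-coding genes. RPS6KB2 was lower with the smallest p (-0.34, limma adjusted p = 0.00396), and TSC2, an inhibitor of mTOR, was higher (0.66, 0.000856). FAU and RACK1 did not pass limma-trend in any comparison, and had log2 fold changes of -0.05 and -0.07 in siIGF2BP1 and 0.17 and 0.03 in siSRF. Limma-voom called FAU higher in siSRF than in siC (adjusted p = 0.00797 by limma-voom). It called both lower in siIGF2BP1 than in siSRF (FAU 6.22e-05, RACK1 0.00392).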

How the data were processed

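Total RNA-seq of ES-2 cells (siC, siIGF2BP1 and siSRF, 3 libraries each) was read from the tables that the authors deposited as FPKM values with gene lengths. Per the study's methods, the authors depleted ribosomal RNA, clipped reads with Cutadapt 1.14, aligned them to GRCh38 with HISAT2 2.1.0, counted them on Ensembl 89 genes with featureCounts 1.5.3 and used edgeR 3.18.1 with TMM normalization. The tables also hold the authors' own fold changes, p-values and FDR, which were not used. The siC values were identical in both tables. FPKM times gene length gave whole reads for 100% of values (tolerance 0.1 reads), 6421764 to 9416175 per library.

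Groups come from the sample labels. Conditions were compared with limma 3.58.1 (lmFit, then eBayes with trend, called limma-trend) in R 4.3.3 on log2(FPKM + 0.1), which understates changes of low genes, keeping genes whose mean over the 6 libraries compared reached 0.1 FPKM. The Benjamini-Hochberg adjustment took in every gene kept, and genes were called at an adjusted p of 0.01. Limma-voom on the recovered reads was an alternative. Single genes had two-sided exact permutation tests, which cannot go below 0.1. The fits were tested on simulated data. Coordinates and canonical transcripts are from GENCODE 44, a later annotation than the one counted on, and promoters from RefSeq (GRCh38.p14). The alternatives were pseudocounts of 1 and 0.01, other filters, median-ratio scaling, cyclic loess, limma-voom, removal of length trends (with GC content added after seeing the data, as were levels on canonical length), robust eBayes, all 9 libraries, a replicate block, a threshold of 0.05 and leaving out each library.

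The members and lists were chosen with earlier results of these data known. Named genes are IGF2BP1, SRF, RPLP0 and GAPDH, the highest 5 members of each subunit and lowest 3 core members, called members, members that did not overlap with siC in both knockdowns, paralogues with their partners, joined genes, and the called gene of smallest p of each list and direction. A few genes that these rules take are not reported here by name.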

Additional observations from a re-analysis of the deposited data

How the results depend on the processing

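No result changed direction past its threshold. The medians of the subunits have no threshold, and some changed sign between the alternatives. That of the small subunit did so in all 3 comparisons, and that of the large subunit between the knockdowns. The counts of calls moved most. With limma-voom on recovered reads, 9 members were lower and 20 higher in siIGF2BP1, 16 lower and 28 higher in siSRF, and 20 lower and 19 higher in siIGF2BP1 against siSRF, beside 1 and 3, 4 and 9, and 8 and 7 in limma-trend. At a threshold of 0.05 these were 3 and 11, 11 and 21, and 13 and 13. Cyclic loess gave 19 higher in siIGF2BP1, 7 lower in siSRF, and 5 lower and 24 higher between the knockdowns. In siIGF2BP1, 9 were higher with all 9 libraries in the fit, 7 with length and GC trends removed and 6 with a mean of at least 1 FPKM. Core members alone gave 0 lower in siIGF2BP1 and 5 lower between the knockdowns. Leaving out 1 library left 0 to 1 lower and 0 to 1 higher in siIGF2BP1, 0 to 3 and 0 to 3 in siSRF, and 2 to 6 and 4 to 6 between the knockdowns. Ribosome assembly genes lower in siIGF2BP1 numbered 10, but 19 with all 9 libraries, 16 with length and GC trends removed, 22 by limma-voom and 0 to 1 without 1 library, and those higher in siSRF 26 and 7 to 22 without 1 library. Mitochondrial ribosomal genes lower in siIGF2BP1 numbered 15, but 23 with all 9 libraries, 23 by limma-voom and 0 to 3 without 1 library, and those higher in siSRF 27 and 6 to 17.

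Same-numbered libraries did not deviate together (correlations between -0.044 and 0.019 over 14168 genes). The labels do not say whether they were grown or processed together, and such correlations cannot show that they were not. A replicate block left 0 lower and 0 higher members in siIGF2BP1, 0 and 0 in siSRF, and 1 and 2 between the knockdowns, with 0 and 9 ribosome assembly genes and 0 and 3 mitochondrial ribosomal genes in siIGF2BP1 and siSRF. Not every library correlated best with its own number.

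Cyclic loess moved the medians of the small and large subunit to 0.13 and 0.20 in siIGF2BP1 and to 0.13 and 0.16 between the knockdowns, and removal of length and GC trends moved them to 0.058 and 0.040 between the knockdowns and the small subunit to 0.011 in siSRF. Without 1 library the small subunit ran from -0.035 to 0.040 in siIGF2BP1 and the large subunit from 0.056 to 0.098 in siSRF. The summed level of all 91 members in siSRF over siC was 0.0054 by FPKM and -0.032 by share of reads (log2). Of the values of single members under the alternatives, 2557 stayed on their side of the threshold, 111 passed it newly and 174 no longer passed. The 2557 also take in values not called in the main fit, which cannot lose a call, so they do not measure how stable the calls were. Causes were not tested. Depth limits the lowest members most: RPL36A rested on a mean of 84.7 reads per siC library, and calls at 3 libraries a group depend on the estimate of the spread.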

Other observations

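The members with the lowest values against siC include some in which 1 siC library lay apart from the others. These were picked after their values were seen. RPS15 had 166, 179 and 121 FPKM in the siC libraries, 130.2, 98.3 and 105 in siIGF2BP1 and 117, 134 and 125 in siSRF. RPL28 had 25.2, 29.9 and 16.1 FPKM in siC, 22.7, 18 and 18.3 in siIGF2BP1 and 15.8, 16.8 and 16.9 in siSRF. RPS29 had 51.4, 52.5 and 36 FPKM in siC, 38.7, 31.1 and 33.6 in siIGF2BP1 and 32.4, 35.3 and 32.4 in siSRF. In all 3 genes siC library 3 lay within or near the range of the knockdown libraries, and none passed limma-trend against siC. RPL41, whose pseudogenes held 56.6% of the reads on gene and pseudogenes, had 213, 320.1 and 205 FPKM in siSRF, against 223, 228 and 243 FPKM in siC.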
